A study of Mus musculus with 12 samples.

Results

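Hippocampal gene expression of wild-type (WT) mice was compared between libraries labelled CT22 and CT10. The 6 libraries were chosen by title, WT1 to WT3 at each label, and are 6 of the 12 in the series, which also holds 6 from Nono knockout (KO) mice. All are poly(A) RNA libraries from hippocampi of adult C57BL/6 mice. The WT CT10 group and the WT CT22 group have 3 libraries each and differ by the CT label alone. Of 23329 gene symbols, 13853 had enough counts in these 6 libraries to be tested. The labels do not spell out CT, which usually stands for circadian time, and they say nothing of the lighting used. Whether each library is a different mouse is not stated either, and p-values therefore reflect the spread among these 6 libraries alone, part of which may be technical. CT10 and CT22 are single labels of a cycle, so a gene that peaks between them can have equal levels at both.

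Most mammalian cells, those of the hippocampus included, carry a circadian clock. CLOCK or NPAS2 pairs with BMAL1 (gene Arntl) and activates genes through E-box elements, among them Per, Cry, Nr1d1, Nr1d2, Ciart and Dbp. PER and CRY proteins repress that pair, the REV-ERB receptors (Nr1d1 and Nr1d2) repress Arntl and Npas2 while ROR receptors activate them, and DBP and its relatives compete with NFIL3 at D-box elements. Glucocorticoid hormone also has a daily rhythm and reaches the hippocampus through its receptors, which bind glucocorticoid response elements (GREs).

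These elements can be seen in the promoters of 3 genes taken up below. In Ciart, the repressor with the lowest ratio of CT22 to CT10 among the clock genes, 3 E-boxes lie close together before the start. In Per3, 2 D-boxes do so, and Sgk1, a glucocorticoid-induced gene, has a GRE and an E-box before one of its starts. The stretches below are RefSeq sequence of the build GRCm38.p6 (mm10), read 5′ to 3′ on the strand of the gene, with the elements in capitals.
Ciart, chr3:95882259-95882358, minus strand, 130 to 31 bases before the start: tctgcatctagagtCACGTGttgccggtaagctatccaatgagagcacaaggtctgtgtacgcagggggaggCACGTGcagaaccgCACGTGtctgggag
Per3, chr4:151044806-151044885, minus strand, 220 to 141 bases before the start: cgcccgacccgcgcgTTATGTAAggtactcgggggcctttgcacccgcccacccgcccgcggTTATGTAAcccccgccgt
Sgk1, chr10:21993640-21993719, plus strand, 250 to 171 bases before the start: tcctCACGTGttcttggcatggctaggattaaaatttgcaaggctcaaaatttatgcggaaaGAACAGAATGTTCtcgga
The Ciart stretch holds no exon and lies inside a transcript of the opposite strand, C920021L13Rik. The Per3 stretch lies inside a Camta1 transcript, and the Sgk1 stretch inside longer Sgk1 transcripts.

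Both strands of the 250 bases before each RefSeq start were searched. The E-box, CACGTG, was in 6.02% of 32851 such windows, the D-box, TTATGTAA or TTACGTAA, in 0.931%, and the GRE, GNACA and TGTNC with 3 bases between, in 0.387%. Of 17 genes of the clock loop and its output searched, 15 had a window, all but Per2 and Bhlhe40. Per1, Tef, Arntl and Clock had more than 1 window. A gene was counted if any of its windows held the element, whereas the percentages are shares of windows. An E-box was found in 5 of the 15 (Per1, Cry1, Ciart, Bhlhe41 and Tef), a D-box in 1 (Per3), a cAMP response element (TGACGTCA, in 1.55% of all windows) in 1 (Hlf) and a ROR element (ANTAGGTCA or ANTGGGTCA, or the same with T first, in 2.67%) in 1 (Nfil3). None of the 15 held a GRE or a heat shock element (GAA, TTC and GAA with 2 bases between each, in 0.466%). No GRE was found in the windows of the glucocorticoid-induced genes Tsc22d3, Klf9, Hif3a, Ddit4 and Plin4, or in the other Sgk1 windows. The ROR element of Nfil3 lies in bases that the GENCODE annotation places in an exon of Nfil3. A match is a description of these letters, and elements outside the windows were not searched.

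The 6 libraries held 6802778 to 10911031 estimated counts. Nono, the gene deleted in KO, had 1147 to 1814 counts in each WT library and 0 to 4 in each KO library. The hippocampal subfield markers and the choroid plexus markers were unequal between the WT libraries, as described further on. WT CT22 replicate 1 stood apart from the others in the subfield markers, and several lists below are given with and without it.

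Against this spread, 2 of the 13853 genes tested passed an adjusted p of 0.05 in edgeR's quasi-likelihood test (0.0144%), Lars2 lower and Cldn5 higher at CT22. At an unadjusted p under 0.05 there were 1306 genes (9.43%), 648 higher (4.68%) and 658 lower (4.75%). In 2257 genes (16.3%) the 3 CT22 libraries all lay on one side of the 3 CT10 libraries, 1120 above (8.08%) and 1137 below (8.21%). A log2 change above 0 was found in 51.4% of genes and below 0 in 48.6%, with a median of 0.0061. DESeq2, run as an alternative, called 33 of the 4912 genes it gave an adjusted p (0.672%), 11 higher and 22 lower, of which 1 was also called by edgeR. In edgeR the number called was 0 when WT CT10 replicate 3 or WT CT22 replicate 2 was left out, 1 without WT CT22 replicate 3, 4 without WT CT10 replicate 2 and 8 without WT CT22 replicate 1. CPM is the count of a gene as a share of its library total scaled by TMM, and log2 changes are of CT22 against CT10 with their standard error (SE).

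Lars2, the mitochondrial leucyl-tRNA synthetase gene (chromosome 9, 123366940 to 123462664, plus strand), stood at 1451, 1896 and 1548 CPM in the WT CT10 libraries and at 683, 594 and 790 CPM in the WT CT22 libraries. All 3 CT22 libraries were below all 3 CT10 libraries. Lars2 fell to 0.422 times the CT10 mean (log2 change −1.24, SE 0.13, edgeR adjusted p = 0.018, DESeq2 adjusted p = 3.502e-21). Of 13 alternative settings 7 kept the call, and the log2 change lay between −1.39 and −1.13 in all of them. The call was lost without WT CT10 replicate 3 (edgeR adjusted p = 0.117), WT CT22 replicate 1 (0.0953) or WT CT22 replicate 2 (0.0527). The same held without both replicate 3 libraries (0.3), with the replicate number as a block (0.243) and with the KO libraries in the fit (0.722). Lars2 shares sequence with other genes: 116 of the 3894 bases of its transcript lie in exact matches of at least 30 bases to AA474408, a locus whose coding status GENCODE leaves undecided, and 52 to Gm15564, annotated as an antisense transcript. Reads from these stretches could have been divided between the genes. The ribosomal RNA precursor Rn45s, a gauge of carried-over ribosomal RNA, stood at 1088, 1324 and 964 CPM at CT10 and 769.9, 2344 and 1002 CPM at CT22. These Rn45s values overlapped, and its part in the Lars2 result was not tested.

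Cldn5 encodes claudin-5, the tight junction protein of the blood-brain barrier (chromosome 16, 18776847 to 18778262, plus strand). It was read at 24.1, 29.7 and 22.4 CPM at CT10 and at 54.4, 45.8 and 54.2 CPM at CT22. The groups did not overlap, and Cldn5 rose 2.03-fold (log2 change 1.01, SE 0.12, edgeR adjusted p = 0.0343, with no adjusted p given by DESeq2). Of 12 alternatives 5 kept the call. It was lost without WT CT10 replicate 1 (edgeR adjusted p = 0.278), WT CT10 replicate 3 (0.28), WT CT22 replicate 2 (0.0527) or WT CT22 replicate 3 (0.154). The same held without both replicate 3 libraries (0.458), with the replicate number as a block (0.243) and with the KO libraries in the fit (0.701). The log2 change stayed between 0.90 and 1.14 in all 12. In bulk tissue a change in the number of cells of a type and a change in RNA per cell cannot be told apart. The endothelial markers were therefore read beside Cldn5, as a list that includes Cldn5 itself. Of 14 endothelial markers 10 had a higher and 4 a lower mean at CT22, with a median log2 change of 0.15. Without WT CT22 replicate 1 it was 0.09 (8 higher and 6 lower), and without WT CT10 replicate 3 it was 0.10. Their summed level, Cldn5 included, was 547 to 618 CPM at CT10 and 566 to 664 CPM at CT22. Pecam1, an adhesion molecule of endothelium, stood at 20, 23 and 21.1 CPM at CT10 and 27.5, 23.4 and 24.6 CPM at CT22 (log2 change 0.23, edgeR adjusted p = 0.55). Slc2a1, the glucose transporter of the barrier and one of the 2 most abundant endothelial markers, was lower in every CT22 library, at 118, 138 and 158 against 96, 115 and 114 CPM (log2 change −0.35, edgeR adjusted p = 0.448). The other of these 2, Slco1c1, a thyroid hormone transporter, had a log2 change of −0.03.

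The genes next in order of p in edgeR did not pass. Rpl26, a ribosomal protein of the large subunit (chromosome 11, 68901566 to 68904534, plus strand), stood at 14.8, 14.9 and 15.1 CPM at CT10 and at 24.4, 26.8 and 30.2 CPM at CT22 (log2 change 0.86, SE 0.12, edgeR adjusted p = 0.0718). Its value is uncertain, since 425 of 657 bases of its transcript lie in exact matches of at least 30 bases to the processed pseudogene Gm15772, and other pseudogenes match as well. Gm15772 itself, counted as a gene of its own, had a log2 change of 0.09 with overlap. Neto1, an auxiliary subunit of kainate and NMDA receptors (chromosome 18, 86394952 to 86501897, plus strand), was read at 121.5, 119.6 and 122 CPM at CT10 and at 84, 89.3 and 83 CPM at CT22 (log2 change −0.50, SE 0.075, edgeR adjusted p = 0.0957, DESeq2 adjusted p = 0.000747). In both genes the CT10 libraries lay close together and apart from the CT22 libraries. An uncharacterised locus stood between them. The next were the clock repressors Nr1d1 and Ciart, and Sgk1 was among the first 10.

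**Figure D1:**
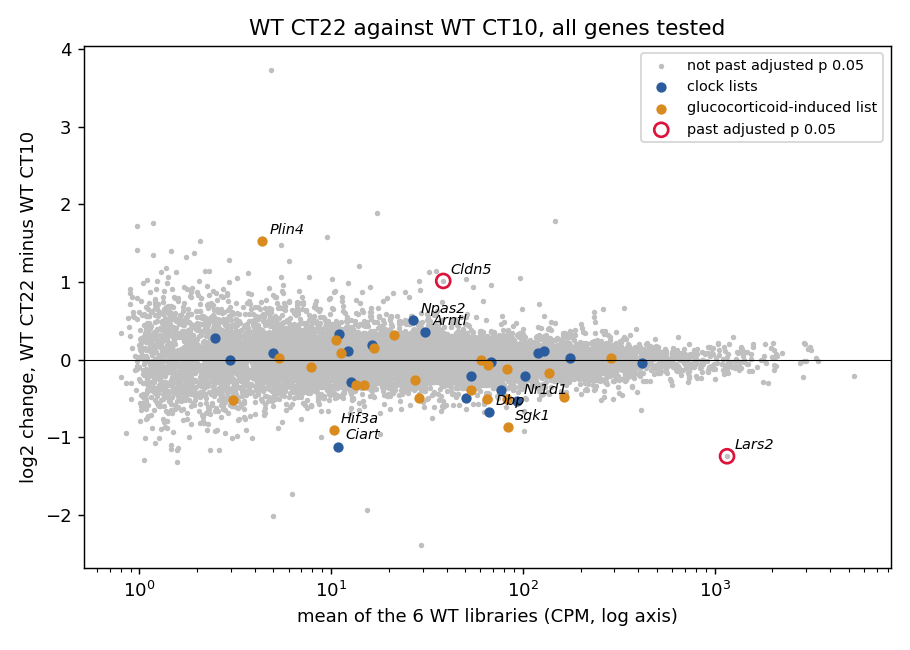
Log2 change of WT CT22 against WT CT10 (vertical axis) against the mean level of the 6 WT libraries in CPM (horizontal log axis) for the 13853 genes tested, with clock genes in blue, glucocorticoid-induced genes in orange and the 2 genes past an adjusted p of 0.05 circled. Lars2 lies low at high expression, and Ciart, Sgk1, Hif3a, Dbp and Nr1d1 lie below 0 without passing the threshold.

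Clock repressors stood lower at CT22 as a group. Of 10 members 7 had a lower and 3 a higher mean, 6 had an unadjusted p under 0.05, all lower, and 5 had CT22 libraries wholly below CT10 against 1 wholly above (median log2 change −0.25, against 0.0061 over all genes). Over all genes 4.75% were lower at that p, 8.21% lay wholly below and 8.08% wholly above. The median of the 10 lay between −0.30 and −0.21 in each run without 1 library. None of the 10 passed the adjusted threshold, so the directions below are means and not calls.

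Nr1d1 encodes REV-ERB alpha, the repressor of Arntl (chromosome 11, 98767935 to 98775242, minus strand). Its CT10 libraries stood at 112, 107.6 and 109.8 CPM and its CT22 libraries at 81.3, 68.9 and 77.2 CPM. The CT10 values were close to each other and all above the CT22 values (log2 change −0.54, SE 0.09, edgeR adjusted p = 0.138). DESeq2 called Nr1d1 (adjusted p = 0.000962), and so did edgeR without a filter on low counts (0.0466) and without WT CT22 replicate 1 (0.0306). A stretch of 269 bases of its transcript overlaps Thra on the opposite strand, and Thra itself had a log2 change of 0.07. Nr1d2, which encodes REV-ERB beta, stood at 95.6, 90.6 and 75.7 CPM at CT10 and at 70.2, 66.4 and 63.3 CPM at CT22 (log2 change −0.39, SE 0.10, edgeR adjusted p = 0.33). Its groups did not overlap either.

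Ciart, listed in the files under its synonym Gm129, encodes a repressor of CLOCK and BMAL1 (chromosome 3, 95878505 to 95882228, minus strand). It was read at 16, 14.4 and 14.5 CPM at CT10 and at 6.7, 5.13 and 8.67 CPM at CT22. Every CT22 library was at or below 8.67 CPM and every CT10 library at or above 14.4 CPM (log2 change −1.12, SE 0.18, edgeR adjusted p = 0.144). The mean at CT22 was 0.457 times that at CT10, the lowest ratio among the 21 genes of the activator, repressor and output lists. Its call was gained in edgeR without a filter on low counts (adjusted p = 0.0404). A processed pseudogene, Gm9176, matches 847 of the 1939 bases of the longest Ciart transcript in stretches of at least 30 bases, so its reads may be shared.

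The 3 period genes differed in size and overlap. Per2 stood at 63.3, 61.6 and 52.6 CPM at CT10 and at 48.3, 42.2 and 36.1 CPM at CT22, with no overlap (log2 change −0.49, SE 0.12, edgeR adjusted p = 0.33). Per3 had a narrow spread, 57.2, 56.2 and 59.3 CPM against 49.6, 50.3 and 49.4 CPM, and a smaller difference (log2 change −0.21, SE 0.08, edgeR adjusted p = 0.502). Per1, at 98.8, 117.7 and 113.6 CPM against 99.1, 87.5 and 98.2 CPM, overlapped (log2 change −0.21, SE 0.09, edgeR adjusted p = 0.518). Per1 is also induced by stimulation of neurons and by glucocorticoids, besides the clock. Bhlhe41, a repressor that binds E-boxes, had overlapping groups (log2 change −0.29, SE 0.17), and so had its relative Bhlhe40 (log2 change 0.09, SE 0.17). Cry1 stood at 15, 16.8 and 14.2 CPM at CT10 and at 16.9, 18.1 and 17.5 CPM at CT22, just above in every library (log2 change 0.19, SE 0.12, edgeR adjusted p = 0.627), and Cry2 had a log2 change of 0.03 (SE 0.08) at 175 CPM.

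Activators and ROR receptors had the opposite sign in 5 of 7 members (median log2 change 0.11). None passed, all 7 had overlapping groups, and 1 had an unadjusted p under 0.05. Over all genes tested 16.3% did not overlap and 4.68% were higher at that p. Arntl (chromosome 7, 113207465 to 113314126, plus strand) stood at 30.3, 28.1 and 23.1 CPM at CT10 and at 36.3, 29.6 and 38.7 CPM at CT22. WT CT22 replicate 2 lay within the range of CT10 and the other CT22 libraries above it (log2 change 0.36, SE 0.13, edgeR adjusted p = 0.497). Npas2 stood at 18.4, 25.3 and 22.5 CPM against 42.5, 22.6 and 29.1 CPM (log2 change 0.51, SE 0.23, edgeR adjusted p = 0.535), with WT CT22 replicate 1 far above the rest. Without that library the median of the 7 was −0.08 with 3 higher and 4 lower, so the sign of this list rested on it. Clock (log2 change −0.03), Rora (0.09), Rorb (0.11) and Arntl2 (−0.00) all had overlapping groups, with standard errors from 0.14 to 0.32. The signs for Clock, Arntl2, Rora and Rorb turned in at least 1 run without a library.

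Among the output factors, Dbp (chromosome 7, 45705247 to 45710203, plus strand), an activator at D-boxes, stood at 80, 70.2 and 94.7 CPM at CT10 and at 43.2, 50.2 and 59.9 CPM at CT22. All 3 CT22 libraries were below CT10 (log2 change −0.67, SE 0.14, edgeR adjusted p = 0.33), and DESeq2 called Dbp (adjusted p = 0.00328). Nfil3, the repressor at the same elements, had the opposite sign, at 10.5, 9.55 and 9.08 CPM against 12.9, 10.9 and 12.9 CPM, with no overlap (log2 change 0.33, SE 0.14, edgeR adjusted p = 0.51). The remaining 2 of this list of 4 had small differences with overlap: Tef had a log2 change of −0.04 and Hlf one of 0.11. Both are relatives of DBP. On a scale per transcript length (TPM), Tef was the most abundant of the clock and output genes at CT10 with a mean of 253, followed by Dbp at 125, Cry2 at 111 and Nr1d1 at 106. Arntl stood at 23.7 TPM, Clock at 22.8 and Npas2 at 13.3, so the repressors Nr1d1 and Cry2 were several times more abundant than the activators.

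**Figure D2:**
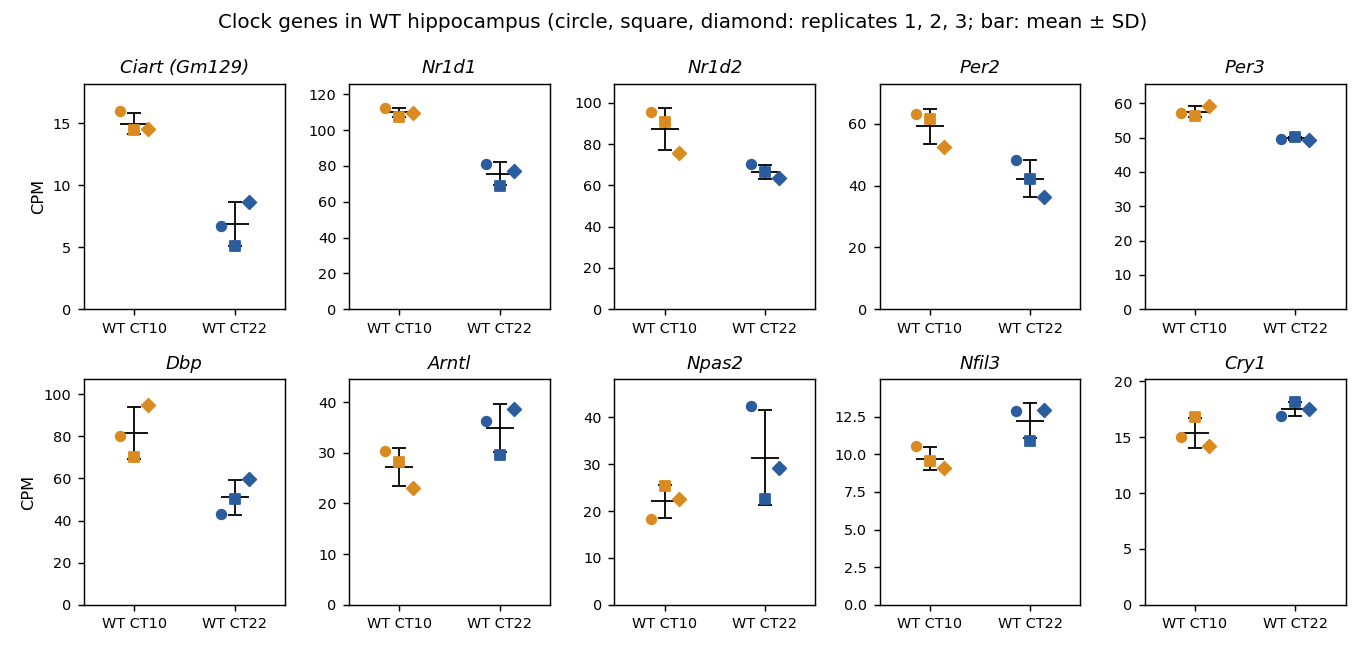
CPM of 10 clock genes in each WT library (circle, square and diamond for replicates 1, 2 and 3; bars show mean ± SD, n = 3), with WT CT10 in orange and WT CT22 in blue and vertical axes from 0. Ciart, Nr1d1, Nr1d2, Per2, Per3 and Dbp have all CT22 libraries below CT10, Nfil3 and Cry1 have all above, and Arntl and Npas2 overlap. The 10 were picked from the activator, repressor and output lists, and the genes of these lists that are not drawn all overlapped.

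Outside the loop, 10 genes known to cycle in many mouse tissues were read. Of these 8 had a lower and 2 a higher mean at CT22 (median log2 change −0.20). At an unadjusted p under 0.05 there were 6, 4 lower and 2 higher, against 4.75% lower and 4.68% higher over all genes. The adjusted threshold in edgeR was passed by 0. Tsc22d3, which encodes the glucocorticoid-induced leucine zipper protein and is also in the glucocorticoid list below, stood at 81.3, 105 and 106 CPM at CT10 and at 63, 72.4 and 71 CPM at CT22. Its groups did not overlap (log2 change −0.50, SE 0.11, edgeR adjusted p = 0.33, DESeq2 adjusted p = 0.0216). Coq10b, a mitochondrial coenzyme Q binding protein, was lower in every CT22 library (log2 change −0.30), and so were Tspan4 (−0.30), Herpud1 (−0.12) and the weakly expressed Fmo2 (−1.07, at 1.66 CPM at CT10). Fmo2 at CT22 included 1 library at 0.218 CPM, which is below the limit of 0.325 CPM that a floor of 3 counts sets there. Dtx4 (log2 change 0.28) and Leo1 (0.31) were higher in every CT22 library. Lonrf3 (−0.27), Usp2 (−0.10) and Wee1 (−0.11) overlapped.

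Glucocorticoid-induced genes stood lower at CT22 in 15 of 23 members tested and higher in 8, with a median log2 change of −0.17. Lcn2 fell below the filter on low counts. Of the 23, 9 had an unadjusted p under 0.05, 8 lower and 1 higher, and the same counts had groups without overlap. Among all genes tested 4.75% were lower and 4.68% higher at that p, and 8.21% lay wholly below and 8.08% wholly above. None passed the adjusted threshold in edgeR. The median was −0.08 without WT CT22 replicate 1, with 13 lower and 10 higher, and −0.14 to −0.29 without each of the other libraries.

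Sgk1, a kinase that regulates ion transport (chromosome 10, 21882184 to 21999902, plus strand), stood at 106, 118 and 98.5 CPM at CT10 and at 45.1, 66.4 and 65.3 CPM at CT22. The CT22 libraries were all well below the lowest CT10 library (log2 change −0.87, SE 0.14, edgeR adjusted p = 0.18). DESeq2 called it (adjusted p = 3.18e-06), as did edgeR without WT CT22 replicate 1 (0.0239). The GRE and E-box shown above lie before one of the 6 RefSeq starts of Sgk1 for which a window was given, and the counts do not tell these starts apart. Klf9, a transcription factor induced through the glucocorticoid and thyroid hormone receptors, stood at 196, 184 and 191 CPM against 131, 154 and 122 CPM, without overlap (log2 change −0.49, SE 0.09, edgeR adjusted p = 0.273, DESeq2 adjusted p = 0.00475). Hif3a, a member of the hypoxia-inducible factor family, stood at 11.2, 14.4 and 14.8 CPM against 6.2, 8.08 and 7.28 CPM (log2 change −0.91, SE 0.17, edgeR adjusted p = 0.225). Its CT22 mean was near the lower side of the range and no CT22 library reached the lowest CT10 library.

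Others of this list were chosen for mention after their values were seen. Ddit4, an inhibitor of mTOR signalling, was at −0.51 on the log2 scale (edgeR adjusted p = 0.33, DESeq2 adjusted p = 0.0216). Nfkbia, which holds back NF-kappaB, had −0.50, Errfi1, an inhibitor of EGF receptor signalling, had −0.39 and Klf15, a metabolic transcription factor, had −0.26. All 4 had CT22 libraries wholly below CT10. Fkbp5, a chaperone of the glucocorticoid receptor and a common readout of the hormone, overlapped at 86.8, 84.8 and 88.6 CPM against 65.8, 88.9 and 83.9 CPM (log2 change −0.12, edgeR adjusted p = 0.717). Only WT CT22 replicate 1 stood low in it. Plin4, a lipid droplet coat protein, went the other way, at 2.54, 2.18 and 2.05 CPM against 4.3, 7.09 and 8.11 CPM (log2 change 1.52, SE 0.28, edgeR adjusted p = 0.222). It was called in edgeR without WT CT22 replicate 1 (adjusted p = 0.0239). The transcription factor Zbtb16, another common readout of the hormone, had a log2 change of 0.00.

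The receptors for the hormone had both signs. Nr3c1, the glucocorticoid receptor, had a log2 change of 0.13 with overlap. Nr3c2, the mineralocorticoid receptor that is abundant in hippocampal neurons, stood at 174, 156 and 145 CPM at CT10 and at 105, 136 and 109 CPM at CT22 (log2 change −0.44, SE 0.11, edgeR adjusted p = 0.33, DESeq2 adjusted p = 0.0497). Crhbp, which binds corticotropin-releasing hormone, was higher in every CT22 library, at 28.2, 32.4 and 26.5 CPM against 43.4, 33.6 and 41.3 CPM (log2 change 0.44, edgeR adjusted p = 0.374). Of the 8 genes of this list 4 had a higher and 4 a lower mean, and none passed.

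**Figure D3:**
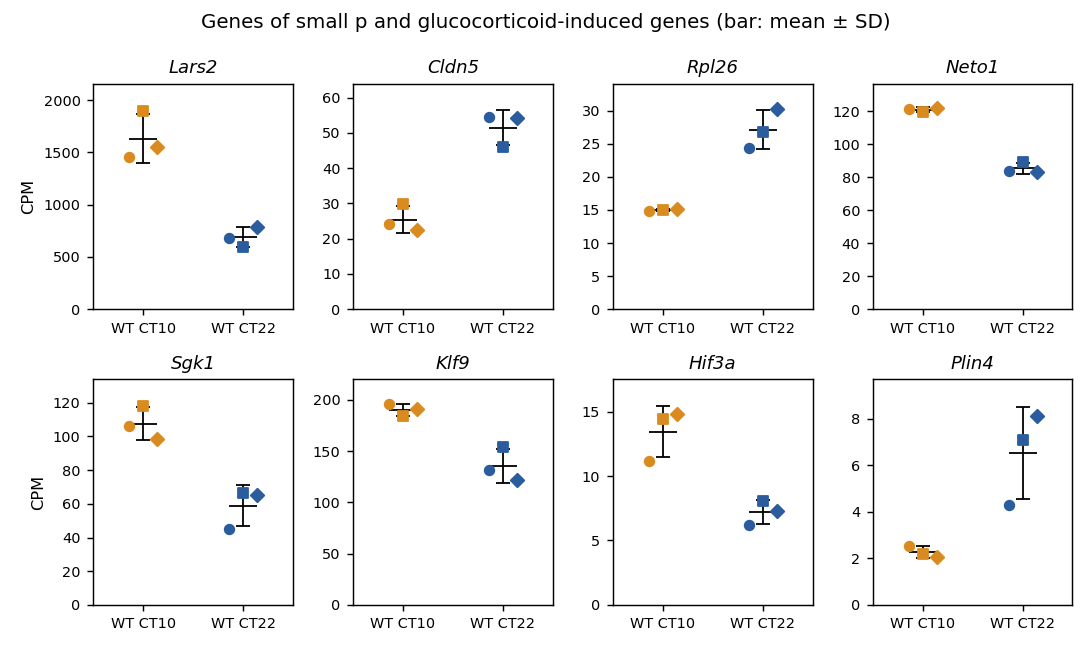
CPM in each WT library (circle, square and diamond for replicates 1, 2 and 3; bars show mean ± SD, n = 3) of the 2 genes past the threshold, Lars2 and Cldn5, of Rpl26 and Neto1, and of the glucocorticoid-induced Sgk1, Klf9, Hif3a and Plin4, with vertical axes from 0. In all 8 genes the CT10 and CT22 libraries do not overlap.

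The list of cytosolic heat shock chaperones stood higher at CT22 in 20 of 23 members (median log2 change 0.12). It also holds the mitochondrial chaperones Hspd1 (0.02) and Hspe1 (0.02) and the transcription factor Hsf1 (−0.03). Of the 23, 6 had an unadjusted p under 0.05, all higher, against 4.68% higher over all genes. CT22 libraries lay wholly above CT10 in 8 and wholly below in 0, against 8.08% and 8.21% over all genes. No member passed the adjusted threshold in edgeR. Cryab, a small heat shock protein of glia and other cells, stood at 82.6, 82.4 and 66.6 CPM at CT10 and at 93.6, 109.7 and 118 CPM at CT22 (log2 change 0.47, SE 0.11, edgeR adjusted p = 0.33, DESeq2 adjusted p = 0.0497). Bag3, a co-chaperone of HSP70, stood at 9.26, 10.4 and 9.96 CPM against 13.5, 14.5 and 13.8 CPM (log2 change 0.50, SE 0.13, edgeR adjusted p = 0.33). Neither gene's groups overlapped. Ahsa1, an activator of HSP90 (log2 change 0.29), Stip1, which links HSP70 and HSP90 (0.28), Fkbp4, which carries steroid receptors (0.32), and the constitutive Hspa8 (0.21) were also higher in every CT22 library. The stress-inducible Hspa1a (0.06) and Hspa1b (0.25) overlapped. These 2 are near-identical copies, so their separate values are uncertain. Without WT CT22 replicate 1 the median was 0.13, with 17 higher and 6 lower.

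In the list of endoplasmic reticulum chaperones, 12 of 15 genes had a higher mean at CT22 (median log2 change 0.15), 3 with an unadjusted p under 0.05. This list also holds the transcription factor Xbp1 (0.07) and Herpud1 (−0.12), which are not chaperones. CT22 libraries lay wholly above CT10 in 5 and wholly below in 1. The shares over all genes were 4.68% higher at that p, 8.08% wholly above and 8.21% wholly below. None passed. Hsp90b1, the reticulum's HSP90, stood at 259, 252 and 257 CPM against 315, 302 and 320.3 CPM (log2 change 0.29, SE 0.07, edgeR adjusted p = 0.33). Calr, a calcium-binding chaperone, stood at 296, 299 and 318 CPM against 393, 347 and 375 CPM (log2 change 0.29, SE 0.08, edgeR adjusted p = 0.368), and the disulfide isomerases Pdia6 and Pdia3 had log2 changes of 0.32 and 0.16. These 4 separated by group in every library. The list as a whole did not keep its median without WT CT22 replicate 1, where it was 0.02 with 8 higher and 7 lower.

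The 2 cold-inducible RNA-binding proteins, whose mRNAs follow body temperature in many tissues, both had a lower mean at CT22. Rbm3 stood at 103.8, 90.4 and 78.3 CPM at CT10 and at 51, 70.2 and 80.4 CPM at CT22 (log2 change −0.44, SE 0.17, edgeR adjusted p = 0.502). Cirbp stood at 56.6, 53.4 and 51.2 CPM against 40, 51.5 and 56.2 CPM (log2 change −0.13, SE 0.12, edgeR adjusted p = 0.741). Both overlapped, and WT CT22 replicate 1 was the lowest library in each.

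Activity-induced transcription factors, which neurons switch on after firing, gave 13 higher and 6 lower means among 19 tested (median log2 change 0.12), and Maff was below the filter. None passed and 15 of the 19 overlapped, while 16.3% of all genes tested did not overlap. Ier5 was the clearest, at 32.2, 33.3 and 33.8 CPM against 46.4, 40.6 and 45.6 CPM (log2 change 0.42, SE 0.09, edgeR adjusted p = 0.33). Klf10 had the opposite sign without overlap (log2 change −0.28), as had Egr3 (−0.21), while Ier2 (0.51) overlapped. The standard readouts Fos (0.12), Egr1 (0.11) and Npas4 (0.56) overlapped too. Of 20 activity-induced effectors 10 had a higher and 10 a lower mean, all 20 overlapped and 0 had an unadjusted p under 0.05 (median log2 change −0.00). Arc, a synaptic effector, had a log2 change of 0.24, Rgs2 one of 0.21, Homer1 one of −0.21 and Nptx1 one of −0.23. Without WT CT22 replicate 1 the transcription factors split into 9 higher and 10 lower, and so they did without WT CT10 replicate 1.

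Receptor genes showed no common direction. Of 12 GABA-A receptor subunits 5 had a higher and 7 a lower mean. Gabrb1, a beta subunit, was lower in every CT22 library, at 29.8, 32.1 and 27.4 CPM against 25.9, 24.7 and 20.4 CPM (log2 change −0.34, SE 0.12, edgeR adjusted p = 0.481), while Gabra4 (−0.31) overlapped. Gabra3 (0.76) was higher in every CT22 library and reached 115 CPM in WT CT22 replicate 1 against 51.4 and 66.9 CPM in the other two. Of 15 ionotropic glutamate receptor subunits 6 had a higher and 9 a lower mean. The AMPA receptor subunit Gria2 stood at 849, 818 and 737 CPM against 696, 699 and 583 CPM (log2 change −0.28, SE 0.09, edgeR adjusted p = 0.453), and the kainate receptor subunits Grik2 (−0.24) and Grik4 (−0.47) also lay below CT10 in every library. Grik4 is also one of the CA2 and CA3 markers read further on. Grin2c (0.23), an NMDA receptor subunit, lay above. The kainate receptor subunits Grik1, Grik3 and Grik5 overlapped.

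Second messenger and metabolic genes had small differences. The cAMP and CREB list of 23 had 14 higher and 9 lower means (median log2 change 0.02), and 8 higher and 15 lower without WT CT22 replicate 1. Prkar1b, a regulatory subunit of protein kinase A, stood at 581, 564 and 598 CPM against 751, 642 and 730.4 CPM (log2 change 0.29, SE 0.08, edgeR adjusted p = 0.402), and Pkia, an inhibitor of that kinase, had the opposite sign (−0.26), both without overlap. Adcy8 (0.45) and Pde10a (−0.29) overlapped. Of 24 cholesterol synthesis genes 15 had a lower and 9 a higher mean (median −0.09, and −0.14 to −0.04 without 1 library). Sc5d, a sterol desaturase, stood at 62.2, 62.6 and 58.6 CPM against 50.5, 53.3 and 49.8 CPM (log2 change −0.26, SE 0.08, edgeR adjusted p = 0.439), without overlap. Stard4 (−0.32) was lower and Pmvk (0.26) higher in every CT22 library. Among 11 kinases and ubiquitin ligases that act on clock proteins 8 had a higher and 3 a lower mean. Csnk1e (0.19) lay above CT10 in every library and Fbxw11 (−0.18) below, and Csnk2b (0.20) and Btrc (0.07) overlapped.

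Ribosomal protein genes had a higher mean at CT22 in 66 of 80 members tested and a lower one in 14 (median log2 change 0.09), and oxidative phosphorylation genes in 56 of 75 (median 0.08). Both medians rested on WT CT22 replicate 3: without it 43 of 80 ribosomal genes (median 0.01) and 38 of 75 oxidative phosphorylation genes (median 0.00) were higher. Without WT CT22 replicate 1 the counts were 76 of 80 (median 0.18) and 68 of 75 (median 0.13). Only 2 ribosomal genes had an unadjusted p under 0.05, Rpl26 and Rpl37a (log2 change 0.28), and 78 of the 80 overlapped. Among all genes tested 16.3% did not overlap. Their summed level was 15249 to 15836 CPM at CT10 and 14306, 16656 and 18356 CPM at CT22, so the CT22 libraries spread on both sides of CT10. Of the 75 oxidative phosphorylation genes 5 had an unadjusted p under 0.05, all higher, where 4.68% of all genes tested were higher at that p. Among the 5 were the complex I subunits Ndufa3 (0.23), Ndufa6 (0.21) and Ndufs7 (0.30) and the complex III subunit Uqcrh (0.23). The DBHS genes Nono, Sfpq and Pspc1 had log2 changes of −0.04, −0.09 and −0.04, with overlap in all 3.

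**Figure D4:**
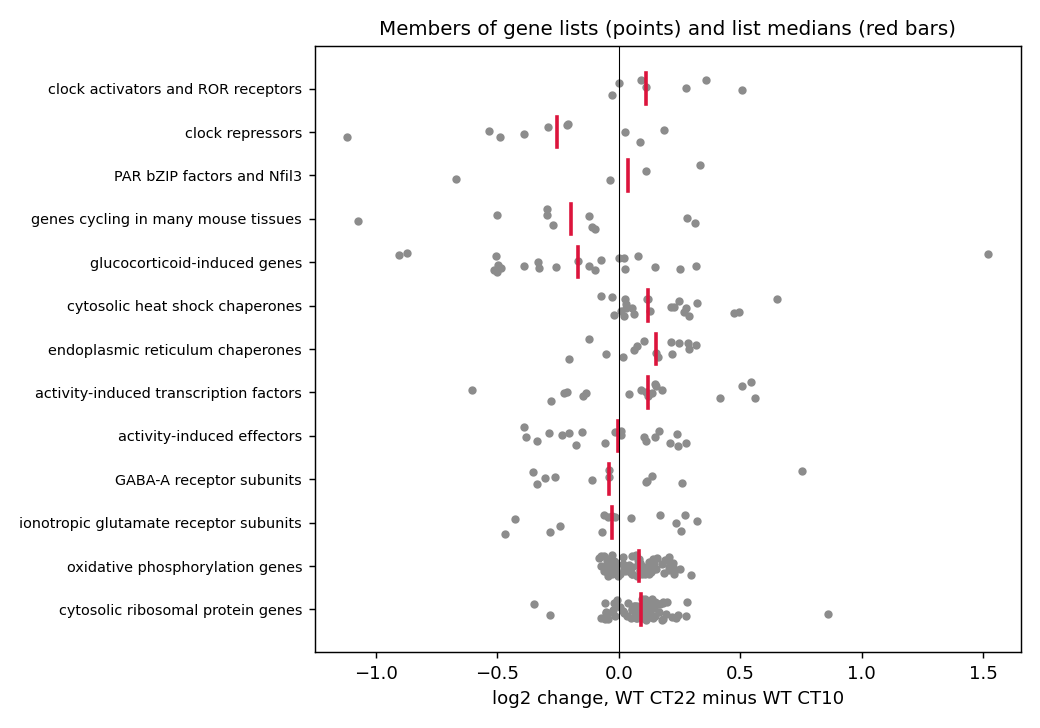
Log2 change of WT CT22 against WT CT10 (horizontal axis) for the members of 13 gene lists (grey points, one per gene) with the median of each list (red bar). Clock repressors, genes cycling in many tissues and glucocorticoid-induced genes have medians below 0, and both chaperone lists, ribosomal protein and oxidative phosphorylation genes above 0, with members on both sides in every list.

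Markers of the hippocampal subfields differed between the CT labels, in opposite directions for CA1 and the other subfields. All 12 dentate granule markers had a lower mean at CT22 (median log2 change −0.44), 7 with an unadjusted p under 0.05, and 5 had CT22 libraries wholly below CT10. Of 14 markers of CA2 and CA3 pyramidal cells 13 had a lower mean (median −0.33), with 3 at an unadjusted p under 0.05 and 5 wholly below. All 10 CA1 pyramidal markers had a higher mean (median 0.50), 5 with an unadjusted p under 0.05 and 3 wholly above. For all genes tested, 4.75% were lower and 4.68% higher at that p, and 8.21% lay wholly below and 8.08% wholly above. No marker of these 3 lists passed the adjusted threshold in edgeR. The CA1 list shares members with the meningeal list (Dcn) and the neocortex list (Nov among them). Grik4 of the CA2 and CA3 list is also among the glutamate receptor subunits above.

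Prdm8, the most abundant dentate granule marker, stood at 121, 108 and 146 CPM at CT10 and at 51.4, 94.1 and 89.6 CPM at CT22 (log2 change −0.67, SE 0.23, edgeR adjusted p = 0.502, DESeq2 adjusted p = 0.0423). The groups did not overlap, and WT CT22 replicate 1 was the lowest library. Stxbp6, the next in abundance, overlapped (log2 change −0.26). In CA1, Mpped1 stood at 212, 239.6 and 159 CPM against 438, 248 and 275 CPM (log2 change 0.65, SE 0.25, edgeR adjusted p = 0.514). Fibcd1, at 174, 215 and 182 CPM against 341, 249 and 242 CPM, was called by DESeq2 (log2 change 0.54, edgeR adjusted p = 0.342, DESeq2 adjusted p = 0.0213). Both were higher in every CT22 library, most so in WT CT22 replicate 1, whereas the CA1 marker Wfs1 overlapped (log2 change 0.08). Of CA2 and CA3, Cpne4 stood at 156, 132 and 138 CPM against 63.8, 126 and 109 CPM (log2 change −0.51, edgeR adjusted p = 0.558). Rgs14 overlapped (−0.04).

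The summed level of the dentate granule markers was 769, 687 and 714 CPM at CT10 and 423, 686 and 582 CPM at CT22. For CA2 and CA3 it was 896, 785 and 838 CPM against 476, 796 and 755 CPM, and for CA1 779, 878 and 648 CPM against 1412, 932 and 981 CPM. WT CT22 replicate 1 was lowest in the first 2 sums and highest in the third. The CA2 and CA3 sums overlapped between the groups, and the dentate granule sums nearly met, at 686 and 687 CPM. Without WT CT22 replicate 1 the medians were −0.30 for dentate granule, −0.23 for CA2 and CA3 and 0.33 for CA1 markers, smaller with the same signs. The counts were then 10 lower and 2 higher for dentate granule, 9 lower and 5 higher for CA2 and CA3, and 10 higher for CA1. Without WT CT22 replicate 2 the CA2 and CA3 median was −0.51. The means of the subfield sums differed between the same groups as the clock and glucocorticoid genes above. The part of the subfields in those results was not tested.

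Choroid plexus markers separated the libraries by replicate and not by CT. Ttr, the transthyretin gene made in large amounts by that tissue, stood at 71.2, 174 and 1500 CPM at CT10 and at 128, 251 and 1469 CPM at CT22, high in replicate 3 of both groups. The 13 markers tested summed to 337, 445 and 2074 CPM at CT10 and 400, 568 and 2190 CPM at CT22. The meningeal and fibroblast markers summed to 132, 257 and 330.3 CPM at CT10 and to 441, 224 and 232 CPM at CT22, highest in WT CT22 replicate 1. Their median log2 change was 0.23 with that library and −0.32 without it, and 0.07 to 0.49 without each of the others. Interneuron markers had 9 higher and 6 lower means, and Sst, the somatostatin gene, was called by DESeq2 (161, 212 and 184 CPM against 344, 214 and 298 CPM, log2 change 0.62, DESeq2 adjusted p = 0.0197, edgeR adjusted p = 0.432). Pvalb (0.58) and Vip (0.73) were also higher in every CT22 library, whereas the median of the 15 was 0.08, and −0.08 with 7 higher and 8 lower without WT CT22 replicate 1. Astrocyte and microglia markers had medians of 0.03 and 0.01, near 0 and of either sign without 1 library. Oligodendrocyte markers had a median of 0.07 with 14 of 14 overlapping, and of −0.13 with 3 higher and 11 lower without WT CT10 replicate 3. Among all genes tested 16.3% did not overlap. Of blood genes, Hba-a1 overlapped (log2 change −0.19), while Hbb-b1 stood at 24.1, 18.3 and 31.3 CPM against 8.7, 3.82 and 6.45 CPM (log2 change −1.93, edgeR adjusted p = 0.18). Hbb-b2 had the opposite sign with overlap, at 7.23, 6.64 and 0 CPM against 6.7, 18.8 and 18 CPM (log2 change 1.58, edgeR adjusted p = 0.622). Globin genes have near-identical copies, so reads may be divided between them.

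**Figure D5:**
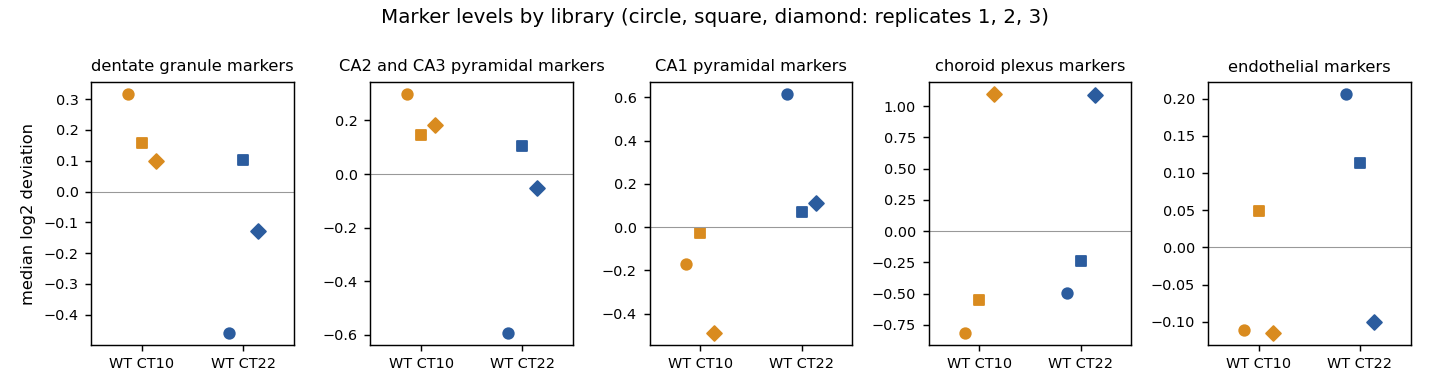
Median deviation of the markers of 5 cell types or regions from their mean over the 6 WT libraries, in log2 CPM (vertical axes differ), for each library (circle, square and diamond for replicates 1, 2 and 3). WT CT22 replicate 1 is lowest in dentate granule and CA2 and CA3 markers and highest in CA1 markers, and replicate 3 of both groups is high in choroid plexus markers.

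The same contrast in KO libraries and the difference between genotypes were tested in a model of all 12 libraries. No gene of 14131 passed for the interaction of genotype and CT (0% in edgeR, and 0 in DESeq2), with 861 at an unadjusted p under 0.05 (6.09%), so no difference between CT22 and CT10 was shown to be particular to WT. For Lars2 the KO libraries stood at 1490, 1535 and 1617 CPM at CT10 and at 1307, 299.6 and 1576 CPM at CT22, with 1 library low (KO log2 change −0.54, edgeR interaction adjusted p = 0.793). Cldn5 had a KO log2 change of 0.16 against 1.01 in WT (edgeR interaction adjusted p = 0.737). Sgk1 in KO stood at 76.4, 61.5 and 57.6 CPM at CT10 and 64.4, 53.3 and 64 CPM at CT22 (log2 change −0.10, edgeR interaction adjusted p = 0.737), all below the lowest WT CT10 library.

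In KO the clock genes Dbp and Nr1d1 did not sort by the CT label. Dbp stood at 93.7, 106 and 33.6 CPM in the libraries labelled KO CT10 and at 90.9, 32.3 and 32.9 CPM in those labelled KO CT22. Nr1d1 behaved alike, at 112, 117 and 72.7 CPM against 125, 67 and 72.4 CPM. In Nr1d1 the library labelled KO CT10 replicate 3 lay among the CT22 libraries. In Dbp that library was close to KO CT22 replicates 2 and 3 and below every WT CT22 library. The library labelled KO CT22 replicate 1 was close to the other CT10 libraries in both genes. Any comparison of the WT difference with KO rests on these labels. In WT the groups did not overlap in Nr1d1, Nr1d2, Per2, Per3, Ciart or Dbp, which are named here because they separated. Per1, Arntl, Npas2 and Bhlhe41 overlapped in WT, so this is no check of the WT labels.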

How the data were processed

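Poly(A) RNA of hippocampus was sequenced on an Illumina HiSeq after a stranded library preparation, per the labels' protocols. The submitters' processing notes name FastQC, TopHat 1.3.3, RSEM 1.2.5, edgeR 3.0.6 and the build mm10, with no role or order. The authors deposited per library the estimated counts and TPM of 30383 RefSeq transcripts. The strand setting of the counting, and which libraries were read from both ends, are not given in the sources used here. If counting ignored strand, reads of a gene and an overlapping antisense gene cannot be told apart.

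Here they were added up over the transcripts of each of 23329 gene symbols and rounded. TPM was summed the same way and used only to compare levels between genes. Genes were kept by edgeR's filterByExpr (minimum count 10), scaled by TMM (factors 0.986 to 1.015) and tested in the 6 WT libraries with edgeR 4.0.16 in R 4.3.3 (robust quasi-likelihood test, Benjamini-Hochberg adjustment over 13853 genes, threshold 0.05). The biological coefficient of variation was 10.8%. An exact permutation test of 3 against 3 libraries cannot go below p = 0.1, so none is given. The interaction and the KO contrast came from a 4-group fit of all 12 libraries, and DESeq2 1.42.0 was an alternative, beside RLE scaling, other filters, the replicate block and leaving out libraries. In simulated data with the same group sizes (13773 genes), edgeR recovered 65% of genes changed 1.5-fold and 88% of those changed 2-fold, with 6 false calls among 159. The simulated spread of each gene followed the trend with expression, without spread between genes of like expression or differences in tissue content. Genes of low mean count were not among those changed. The shares recovered may therefore be too high for the real libraries.

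The comparison, its 19 gene lists and its 14 marker lists were chosen with earlier results of these data known. Named genes were every member of the clock activator, clock repressor, output, cold-inducible and many-tissue cycling lists, up to 30 called genes whose mean reached 2 CPM, the 4 members of smallest p of each other list, the 1 or 2 most abundant of each marker list, and genes called by DESeq2 alone. Other genes were named after their values were seen: Ddit4, Errfi1, Fkbp5, Klf15, Nfkbia, Zbtb16, Egr1, Fos, Npas4, Grik1, Grik3, Grik5, Hspa1a, Hspa1b, Hspa8, Stip1, Pecam1, Pvalb, Vip, Wfs1, Rpl26, Neto1, Hbb-b2, Rn45s, Thra and Gm15772. Shared sequence was counted in GENCODE transcripts as exact matches of 30 bases. Promoter windows came from RefSeq. Some genes that this rule covers are not reported here. A deposited table of the whole series was not used here.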

Additional observations from a re-analysis of the deposited data

How the results depend on the processing

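The count of 2 called genes was also 2 with RLE scaling and with at least 50 counts in 3 libraries, 6 with no filter on low counts and 33 in DESeq2. It was 0 with all 12 libraries in the fit (955 genes at an unadjusted p under 0.05), and 0 without both replicate 3 libraries (1028). With the replicate block it was 0 (1277), and the edgeR adjusted p was 0.243 for both Lars2 and Cldn5. Same-numbered libraries had correlations of their deviations of −0.12, −0.05 and 0.11. These values cannot tell whether a shared number marks a shared animal or batch, and the labels do not say. Leaving out 1 library gave 0 to 8 calls, with 1253 genes at an unadjusted p under 0.05 in edgeR without WT CT10 replicate 3 and 1435 without WT CT22 replicate 2. The interaction gave 0 calls in each of its 16 alternatives. The causes were not tested.

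The direction of the log2 change was followed for the genes named by rule, not for all genes tested. It turned in at least 1 alternative for 17 of these named genes, all with overlapping groups. Their lowest and highest values without 1 library were Arntl2 −0.25 to 0.24, Bhlhe40 −0.14 to 0.22, Clock −0.14 to 0.11, Cry2 −0.0171 to 0.0698, Enpp2 −0.29 to 0.68, Hba-a1 −0.45 to 0.0216, Hlf −0.14 to 0.26, Nono −0.0645 to 0.00748, Pspc1 −0.10 to 0.0405. For the rest they were Rgs14 −0.19 to 0.11, Rora −0.23 to 0.23, Rorb −0.0782 to 0.21, Slco1c1 −0.15 to 0.031, Tef −0.15 to 0.0217, Ttr −1.61 to 2.32, Usp2 −0.19 to 0.0183 and Wee1 −0.19 to 0.0205. Without both replicate 3 libraries it turned for Clock (0.00995), Cry2 (−0.0122), Tef (0.0189) and Slco1c1 (0.0118).

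With 3 libraries a group, a difference below the threshold is not shown to be absent. Even in the simulated data, which lacked part of the real spread, 65% of 1.5-fold changes were recovered.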

Other observations

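Markers of tissue that borders the hippocampus were also read. Of 12 neocortex markers tested 10 had a higher mean at CT22 (median log2 change 0.16, and 0.05 with 8 higher without WT CT22 replicate 1), summing to 347, 389 and 328 CPM at CT10 and to 599.6, 359 and 413 CPM at CT22. Of 9 striatum markers 8 were higher (median 0.28, and 0.03 without WT CT22 replicate 1), and of 12 thalamus and habenula markers 8 (median 0.13, and 0.04 with 7 higher without that library). WT CT22 replicate 1 was the highest library in the neocortex sum, as in the CA1 and meningeal sums, and their part in the other results was not tested. Oligodendrocyte markers summed to 8304, 7417 and 4501 CPM at CT10 and to 6347, 7937 and 7543 CPM at CT22, with WT CT10 replicate 3 the lowest.

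Several genes called by DESeq2 alone belong to none of the lists. Ndrg1, a stress-responsive gene of glia, stood at 93.9, 110 and 70.6 CPM at CT10 and at 178, 132 and 143 CPM at CT22 (log2 change 0.72, DESeq2 adjusted p = 0.00261). Prickle2, a planar cell polarity gene (log2 change −0.45), and Spock1, a proteoglycan gene (log2 change −0.51), were both called lower by DESeq2 (adjusted p = 0.0197 each). None of the 3 passed in edgeR.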
